A study of Homo sapiens with 4 samples.

Results

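Amino acid transporters of the solute carrier (SLC) families were followed by RNA-seq in MCF10A cells, a non-tumorigenic human breast epithelial line, with and without overexpression of the heat shock transcription factor HSF1. The families were chosen with earlier results of these data known. Within them the genes were taken by name: every symbol of the SLC1A, SLC3A, SLC6A, SLC7A, SLC36A, SLC38A and SLC43A families in the deposited expression table. Pseudogenes, antisense genes and the opposite-strand gene SLC7A6OS, which is no transporter, were left out. This gave 59 of the 63856 genes in the count table. Of the 59 transporters, 30 had enough reads to be tested and 29 did not.

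Both groups were grown in the same DMEM/F12 medium with horse serum, insulin, hydrocortisone and EGF. The wild type (WT) group was unmodified cells, and the HSF1 group carried the human HSF1 coding sequence from a lentiviral pLVX-Puro vector and was selected with puromycin. Each group had 2 libraries, which the study treated as biological replicates of 1 cell line, so p-values measure the spread between these samples only. Libraries of empty-vector cells were not analysed here, and transduction, puromycin selection and HSF1 therefore cannot be told apart.

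Library totals ran from 18688109 to 24184285 counts assigned to genes. Levels are given as CPM, counts scaled to a common library size,, and fold changes as log2 of HSF1 over WT with the standard error (SE). The transgene check came first: HSF1 itself stood at 200.4 and 189 CPM in the WT libraries and at 982 and 999 CPM in the HSF1 libraries, a log2 fold change of 2.35 (SE 0.0999, edgeR adjusted p = 1.14e-10). The labelled epithelial identity was checked against markers. A set of 4 epithelial markers was detected in every library but its summed level was 5790.0 and 5915 CPM in WT against 1333 and 1109 CPM in HSF1 cells, with 4 of 4 called lower. The basal set summed to 10326 and 10189 CPM in WT and 6184 and 6858 CPM in HSF1 cells, with 3 of 5 markers called higher and 2 lower. Of 7 fibroblast markers 3 were at or under 3 counts in all libraries, and the set summed to between 7.83 and 15 CPM, most of it COL1A1. Of the 2 tested fibroblast markers 1 was called higher: DCN had 1 and 3 counts in WT and 94 and 87 counts in HSF1 cells. DCN passed the filter of the test through its HSF1 libraries alone, so its call lends that rise no separate support. PTPRC, the defining leukocyte marker, had 0 counts in all libraries. The part of these marker shifts in the transporter results was not tested. In such bulk RNA, fewer cells of a type and less RNA per cell cannot be told apart.

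Amino acids cross membranes through carriers that differ in substrate, in driving force and in location. SLC7 light chains work as exchangers and most of them need an SLC3 heavy chain, joined by a disulphide bond, to reach the plasma membrane. SLC1, SLC6 and SLC38 carriers use the sodium gradient to concentrate substrates, and several SLC36 carriers use protons. Several SLC38 and SLC36 members sit on the lysosome, where amino acids are sensed by the mTORC1 kinase complex. In epithelial cells the glutamine taken up by SLC1A5 can be exchanged for leucine by the SLC7A5 and SLC3A2 pair, and cystine taken up by SLC7A11 feeds glutathione synthesis.

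Of the 30 transporters tested, 15 were higher in HSF1 cells, 7 were lower and 8 were not called at an adjusted p of 0.05 (edgeR's quasi-likelihood test, Benjamini-Hochberg adjustment over all 15830 genes tested). The called share was 73.3%, against 65.9% of all tested genes. The direction was uneven. Among all tested genes 32.7% were called higher and 33.2% lower, and the median log2 fold change was 0.55 over the tested transporters and 0.02 over all tested genes. A called rise of at least 2-fold was seen in 9 of the 30 (against 14.9% of all tested genes), and a called fall of at least 2-fold in 2 of the 30 (6.67%, against 14.0%). In 24 of the 30 the WT and HSF1 libraries did not overlap, and 83.1% of all tested genes had groups that did not overlap. For some genes the filter itself required a difference: SLC1A1 reached the filter through its WT libraries alone, and SLC43A1 and SLC7A7 through their HSF1 libraries alone. SLC43A1 is among the 9 called rises and SLC1A1 among the 2 called falls of at least 2-fold. The plot of levels in each library shows the rises among the SLC3, SLC7, SLC1, SLC43 and SLC6 genes. No SLC38 or SLC36 gene was called higher.

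**Figure D1:**
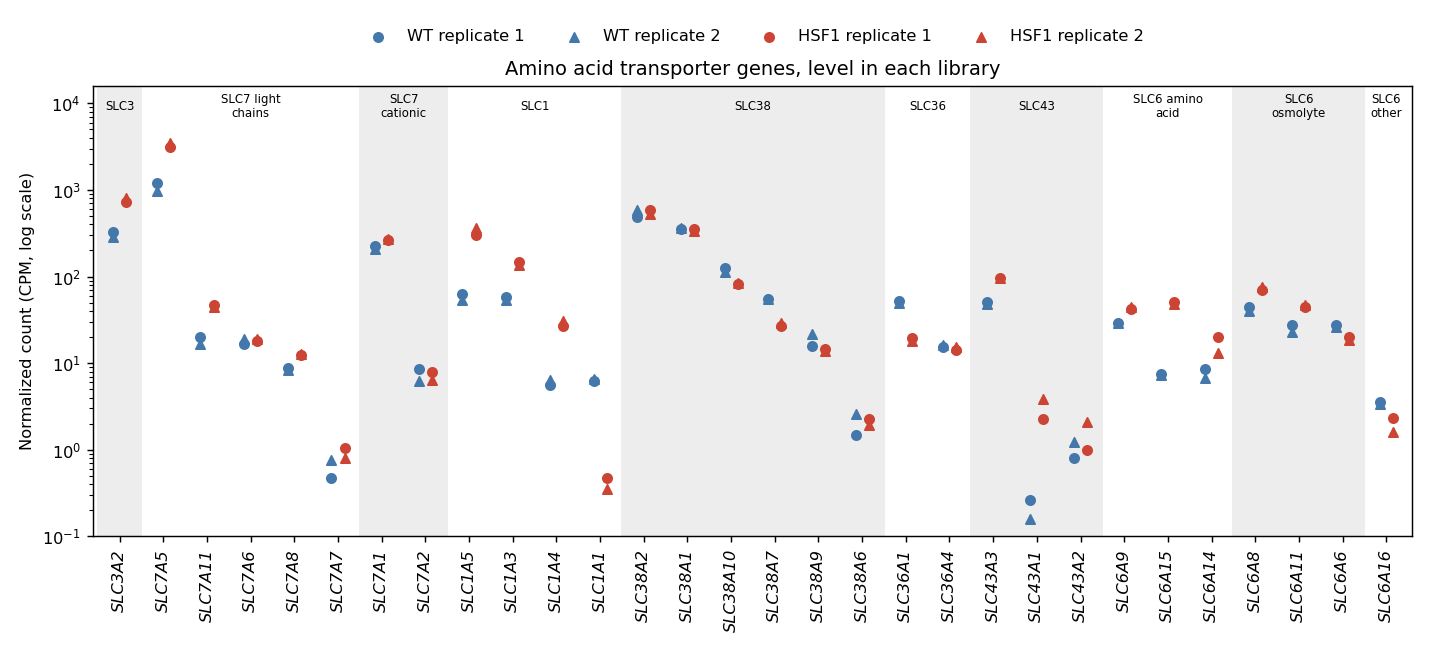
Level of the 30 tested amino acid transporters in each library, in CPM on a log scale, grouped by family and role; circles and triangles are replicates 1 and 2, blue is WT and red is HSF1. SLC7A5 is the most abundant in every library, at 977 to 3444 CPM, and SLC1A1 and SLC43A1 show the widest gaps in opposite directions.

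SLC3A2 and SLC7A5 were the leading pair of the heteromeric exchangers. SLC3A2 (chr11:62856102-62888875, hg38) encodes the CD98 heavy chain that carries light chains to the cell surface. It stood at 330.0 and 287 CPM in the WT libraries and at 727 and 814 CPM in the HSF1 libraries. Both HSF1 libraries lay above both WT libraries, and the log2 fold change was 1.32 (SE 0.107, edgeR adjusted p = 7.25e-08). The other heavy chain gene, SLC3A1, which pairs with SLC7A9 in kidney and gut, was close to undetected and was not tested. It had 2 and 0 counts in WT and 6 and 5 counts in HSF1 cells, an HSF1 mean 1.53 times a floor of 3 counts per library.

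SLC7A5 (chr16:87830023-87869488, hg38) encodes LAT1, which exchanges large neutral amino acids such as leucine and tryptophan. Its level was 1216 and 977 CPM in WT and 3128 and 3444 CPM in HSF1 cells, a mean of 1096 ± 169 against 3286 ± 224 CPM (SD, n = 2). The spread within each group was small beside the 3.0-fold difference between them (log2 fold change 1.58, SE 0.127, edgeR adjusted p = 6.53e-08). Per kilobase of exon it ranked 117 and 142 among all tested genes in the WT libraries and 42 in each HSF1 library. SLC7A5 alone held 45.1 and 39.8% of the CPM per kilobase summed over the transporters in WT and 56.3 and 57.6% in HSF1 cells. About 5.71% of its exonic bases overlap another gene, and the pseudogene copy SLC7A5P1 had at most 10 counts.

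SLC7A11 (chr4:138164097-138242349, hg38) encodes the cystine and glutamate exchanger xCT. Its level was 20.3 and 16.5 CPM in WT and 46.6 and 44.7 CPM in HSF1 cells. The groups were well apart, with a log2 fold change of 1.31 (SE 0.107, edgeR adjusted p = 8.34e-08). An antisense gene overlaps 8.97% of its exonic bases and had at most 9 counts in any library.

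The remaining light chains moved less. SLC7A8, the LAT2 exchanger of small and large neutral amino acids, stood at 8.90 and 8.40 CPM in WT and 12.5 and 12.6 CPM in HSF1 cells (log2 fold change 0.54, SE 0.129, edgeR adjusted p = 0.00215), and this call was lost in DESeq2 (adjusted p = 0.0524, range over the alternatives 2.70e-04 to 0.0524). SLC7A6, which exchanges cationic for neutral amino acids, had overlapping groups at 16.6 and 19.2 CPM in WT and 17.8 and 18.9 CPM in HSF1 cells. Its log2 fold change was 0.04, with a 95% interval from -0.21 to 0.28. Other genes overlap 55.6% of its exonic bases, SLC7A6OS on the opposite strand the most, and strand use in counting is not given in the sources used here, so reads of the neighbours may be in this value. SLC7A7, with a related exchange activity, was at 0.479 and 0.753 CPM in WT and 1.04 and 0.805 CPM in HSF1 cells, and its interval from -0.24 to 1.42 on the log2 scale was wide at this depth.

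The balance of light to heavy chain was compared per kilobase of exon within each library. SLC7A5 gave 4.02 and 3.72 times the CPM per kilobase of SLC3A2 in the WT libraries and 4.69 and 4.62 times in the HSF1 libraries. The ratio of SLC7A11 to SLC3A2 overlapped between groups, at 0.0330 and 0.0308 in WT and 0.0344 and 0.0295 in HSF1 cells. For SLC7A6 it was 0.0344 and 0.0456 in WT and 0.0167 and 0.0159 in HSF1 cells. The light and heavy chain transcripts thus rose side by side for SLC7A5 and SLC7A11, while SLC7A6 and SLC7A8 took a smaller place beside SLC3A2 in both HSF1 libraries. Differences between these ratios were not tested. SLC7A5 made up 97.5% of the light chain CPM per kilobase in WT and 98.6% in HSF1 cells.

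**Figure D2:**
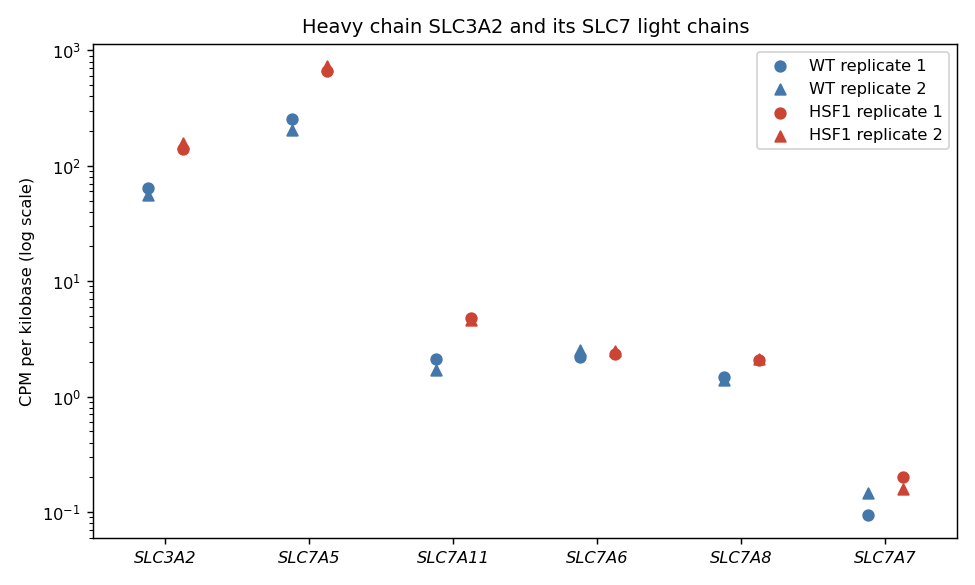
CPM per kilobase of exon of the heavy chain SLC3A2 and of the tested SLC7 light chains in the 4 libraries, on a log scale. SLC3A2, SLC7A5 and SLC7A11 are higher in both HSF1 libraries, and the SLC7A6 values of the groups overlap.

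The SLC7 carriers of cationic amino acids, which need no heavy chain, changed little. SLC7A1, the main arginine and lysine carrier of most cells, was at 226 and 206 CPM in WT and 266 and 270.5 CPM in HSF1 cells. The log2 fold change of 0.31 (SE 0.0909, edgeR adjusted p = 0.00766) was the smallest of the called transporters, and the call was lost without WT replicate 2 (adjusted p = 0.0912) and without HSF1 replicate 2 (adjusted p = 0.0979, range over the alternatives 3.61e-04 to 0.0979). SLC7A2, its inducible relative, had overlapping groups at 8.68 and 6.24 CPM in WT and 7.97 and 6.34 CPM in HSF1 cells, with a 95% interval from -0.45 to 0.34 on the log2 scale. The other 3 genes of this group were too low to be tested.

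Of the families and roles compared, SLC1 gave the largest ratio of summed CPM per kilobase, from a mean of 29.1 in WT to 126 in HSF1 cells. The 4 tested members were all called, 3 higher and 1 lower. SLC1A5 (chr19:46774883-46788594, hg38) encodes ASCT2, the sodium-dependent exchanger that supplies many proliferating cells with glutamine. It stood at 63.3 and 53.9 CPM in WT and at 302 and 360.4 CPM in HSF1 cells. Every HSF1 library was several times above every WT library, with a 5.65-fold ratio of means and a log2 fold change of 2.50 (SE 0.115, edgeR adjusted p = 2.41e-10). Its rank by CPM per kilobase among tested genes moved from 2284 and 2645 to 383 and 331. Of its exonic bases, 23.8% overlap 2 other genes, one of which had up to 500 counts in a library, against 1188 and 1001 counts of SLC1A5 in WT and 7571 and 7159 in HSF1 cells.

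SLC1A4 (chr2:64988477-65023865, hg38), the related ASCT1 carrier of alanine, serine and cysteine, moved with SLC1A5. Its level was 5.59 and 6.46 CPM in WT and 27.0 and 30.4 CPM in HSF1 cells, a log2 fold change of 2.25 (SE 0.128, edgeR adjusted p = 1.99e-09). SLC1A3, the glutamate and aspartate carrier EAAT1, was at 58.7 and 54.2 CPM in WT and 149 and 137 CPM in HSF1 cells (log2 fold change 1.34, SE 0.0904, edgeR adjusted p = 1.12e-08). Neither gene had overlapping groups.

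SLC1A1 (chr9:4490444-4587469, hg38), the glutamate and cysteine carrier EAAT3, went the other way. It had 117 and 123 counts in the WT libraries and 12 and 7 counts in the HSF1 libraries, or 6.23 and 6.62 CPM against 0.478 and 0.352 CPM. The gene was readily detected in both WT libraries and barely in either HSF1 library, and the means differed 15.5-fold (log2 fold change -3.91, SE 0.283, edgeR adjusted p = 2.33e-08). This was the largest fall among the tested transporters. Because SLC1A1 passed the filter through its WT libraries alone, its p-value lends the fall no separate support. SLC1A1 and SLC1A3, which both take up acidic amino acids, thus moved in opposite directions. SLC1A6 had 1 and 0 counts in WT and 7 and 5 counts in HSF1 cells and was not tested.

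**Figure D3:**
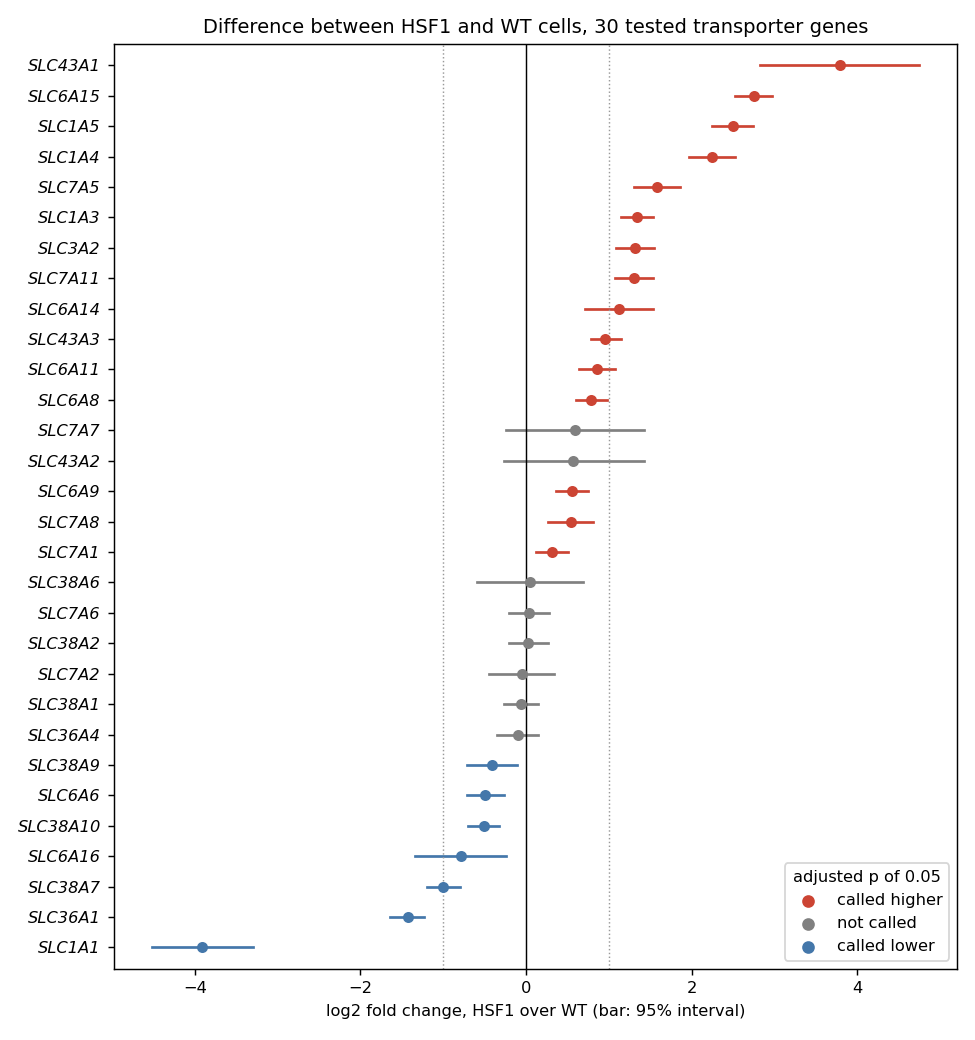
Log2 fold change of HSF1 over WT for the tested transporters, ordered by size, with bars for the 95% interval; red and blue points were called higher and lower at an adjusted p of 0.05 and grey points were not called. The values run from -3.91 for SLC1A1 to 3.79 for SLC43A1, and 15 red points lie above 0 and 7 blue points below.

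The SLC38 family carries small neutral amino acids, glutamine above all. Of its 11 members 6 were tested, none was called higher, 3 were lower and 3 were not called. SLC38A2 and SLC38A1, the plasma membrane carriers of system A, were among the most abundant transporters and lie 88.2 kb apart on chr12. SLC38A2 stood at 489 and 594 CPM in WT and 584 and 521 CPM in HSF1 cells. SLC38A1 stood at 356 and 366 CPM in WT and 358 and 334 CPM in HSF1 cells. Both had overlapping groups, with 95% intervals of the log2 fold change from -0.21 to 0.27 for SLC38A2 and from -0.26 to 0.14 for SLC38A1.

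The SLC38 genes that fell were SLC38A7, SLC38A9 and SLC38A10. SLC38A7, a lysosomal exporter of glutamine and asparagine, was at 54.7 and 55.6 CPM in WT and 26.6 and 28.8 CPM in HSF1 cells. Its replicates were close to each other and the groups far apart, with a log2 fold change of -1.0 that fell just short of 2-fold (SE 0.0890, edgeR adjusted p = 2.13e-07). SLC38A10 was at 124 and 114 CPM in WT and 83.0 and 83.9 CPM in HSF1 cells (log2 fold change -0.51, SE 0.0859, edgeR adjusted p = 1.09e-04), and 7.91% of its exonic bases overlap another gene. SLC38A9, the lysosomal arginine sensor and carrier, gave the weakest of these calls: 15.8 and 21.6 CPM in WT and 14.5 and 13.7 CPM in HSF1 cells, a log2 fold change of -0.41 (SE 0.140, edgeR adjusted p = 0.0190), lost without WT replicate 2 (adjusted p = 0.282) or HSF1 replicate 2 (adjusted p = 0.244) and in DESeq2 (adjusted p = 0.0705). Over all alternatives its adjusted p ran from 4.47e-05 to 0.282. SLC38A6 had overlapping groups between 1.49 and 2.58 CPM, and 6.28% of its exonic bases overlap other genes, among them TRMT5 with up to 553 counts. Among the untested members, SLC38A11 had 1 and 2 counts in WT and 7 and 12 in HSF1 cells. Its HSF1 mean was 2.75 times a floor of 3 counts per library, and DESeq2 did not call it (adjusted p = 0.188). SLC38A5 had between 2 and 5 counts.

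Several SLC36 carriers, though not all, couple small neutral amino acids to protons. SLC36A1 (chr5:151437046-151492381, hg38), found on lysosomes and at the cell surface, stood at 52.5 and 49.0 CPM in WT and at 19.4 and 18.1 CPM in HSF1 cells. It was 2.71-fold lower in HSF1 cells, with no overlap (log2 fold change -1.43, SE 0.0945, edgeR adjusted p = 8.66e-09). SLC36A4, a high-affinity carrier of proline and tryptophan, was at 15.4 and 16.1 CPM in WT and 14.2 and 15.3 CPM in HSF1 cells, with a 95% interval from -0.35 to 0.14 on the log2 scale. The other SLC36 genes, SLC36A2 and SLC36A3, lie beside SLC36A1 on chr5 and were not tested.

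The SLC43 family gave 2 genes called higher and 1 not called. SLC43A1 (chr11:57484534-57515786, hg38) encodes LAT3, a uniporter of branched-chain amino acids. It had 5 and 3 counts in the WT libraries and 57 and 77 counts in the HSF1 libraries, or 0.266 and 0.161 CPM against 2.27 and 3.88 CPM. The gene was almost silent in WT and low in HSF1 cells, and its 14.4-fold ratio of means was the widest rise among the tested transporters (log2 fold change 3.79, SE 0.447, edgeR adjusted p = 3.70e-06). SLC43A1 passed the filter through its HSF1 libraries alone, so its p-value lends the rise no separate support. SLC43A3, a carrier of purine nucleobases that lies 57.0 kb from SLC43A1, was much more abundant, at 51.5 and 47.7 CPM in WT and 96.8 and 96.9 CPM in HSF1 cells (log2 fold change 0.96, SE 0.0840, edgeR adjusted p = 1.60e-07). Other genes overlap 29.9% of its exonic bases. SLC43A2, the LAT4 uniporter, had overlapping groups at 0.799 and 1.24 CPM in WT and 0.996 and 2.11 CPM in HSF1 cells, and was not called (interval from -0.27 to 1.42 on the log2 scale).

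The SLC6 family holds sodium- and chloride-dependent carriers of amino acids, of osmolytes and of monoamine transmitters. All 3 tested amino acid carriers of the family were called higher. SLC6A15 (chr12:84859488-84913615, hg38), a carrier of branched-chain amino acids and proline known mainly from neurons, was at 7.56 and 7.21 CPM in WT and at 50.3 and 48.8 CPM in HSF1 cells. Replicates were close to each other and the means differed 6.71-fold (log2 fold change 2.75, SE 0.106, edgeR adjusted p = 4.87e-11). A set of 3 neuronal markers summed to between 0.592 and 1.39 CPM in all libraries.

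SLC6A14, a carrier of neutral and cationic amino acids at epithelial surfaces, stood at 8.63 and 6.67 CPM in WT and 20.1 and 13.0 CPM in HSF1 cells. The HSF1 libraries differed from each other but lay above both WT libraries, and the log2 fold change of 1.12 (SE 0.190, edgeR adjusted p = 1.24e-04) ran from 0.77 to 1.40 as each library was left out. SLC6A9, the glycine carrier GLYT1, was at 29.2 and 29.3 CPM in WT and 41.7 and 44.4 CPM in HSF1 cells (log2 fold change 0.55, SE 0.0898, edgeR adjusted p = 8.11e-05). The opposite-strand gene CCDC24, with up to 359 counts, overlaps 7.83% of its exonic bases.

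Among SLC6 carriers of osmolytes, creatine and GABA, 2 rose and 1 fell. SLC6A8, the creatine carrier, was at 44.2 and 40.3 CPM in WT and 69.7 and 76.5 CPM in HSF1 cells (log2 fold change 0.79, SE 0.0899, edgeR adjusted p = 2.62e-06). SLC6A11, a GABA carrier, was at 27.3 and 22.7 CPM in WT and 44.5 and 46.6 CPM in HSF1 cells (log2 fold change 0.86, SE 0.102, edgeR adjusted p = 3.75e-06). SLC6A6, the taurine carrier, was lower in both HSF1 libraries, at 27.8 and 25.9 CPM in WT and 20.0 and 18.3 CPM in HSF1 cells (log2 fold change -0.49, SE 0.102, edgeR adjusted p = 7.73e-04). None of the 3 had overlapping groups.

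The monoamine carriers were close to undetected. SLC6A2, the noradrenaline carrier, had 10 and 9 counts in WT and 0 and 0 counts in HSF1 cells. Its WT mean was 3.76 times a floor of 3 counts per library, and it did not pass the filter. SLC6A16, an orphan member with no settled substrate, was at 3.57 and 3.39 CPM in WT and 2.35 and 1.61 CPM in HSF1 cells (log2 fold change -0.79, SE 0.256, edgeR adjusted p = 0.0137), a call lost without HSF1 replicate 2 (adjusted p = 0.114) and in DESeq2 (adjusted p = 0.104), with a range over the alternatives from 0.00445 to 0.114. Of the 29 untested transporters, 21 had at most 3 counts in every library and 8 of these had 0 in all: SLC1A7, SLC6A3, SLC6A5, SLC6A18, SLC6A19, SLC7A3, SLC7A10 and SLC7A13. SLC6A12, SLC6A13 and SLC7A9 had between 0 and 7 counts. The untested genes together summed to 0.320 to 0.464 CPM per kilobase.

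Summed over the 59 transporters, the level was 569 and 517 CPM per kilobase in the WT libraries and 1172 and 1260.0 CPM per kilobase in the HSF1 libraries, 2.24-fold higher on average. Without SLC7A5 the sums were 312 and 311 in WT and 512 and 534 in HSF1 cells, 1.68-fold higher. The family sums moved in different directions. The SLC1 sum was 4.35-fold higher, the light chain sum went from 237 to 702 CPM per kilobase, the SLC38 sum from 144 to 135 and the SLC36 sum from 8.91 to 4.25. The SLC38 libraries overlapped between groups, with 136 and 152 CPM per kilobase in WT and 141 and 129 in HSF1 cells.

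**Figure D4:**
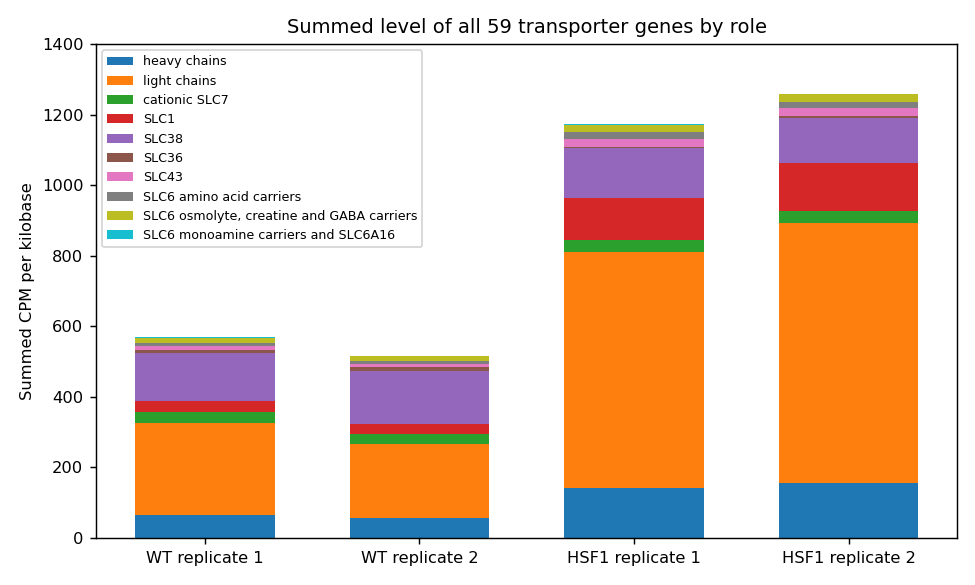
CPM per kilobase of exon summed over the 59 transporters in each of the 4 libraries, with a stacked colour for each family or role. The light chain layer averages 237 in WT and 702 in HSF1 cells, and the whole bar 543 and 1216.

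Promoter windows were searched for the sequences bound by HSF1 and by ATF4, the transcription factor of the amino acid response. Heat shock elements were searched as 3 units in alternating orientation with 2 bases between them (GAA, TTC, GAA or TTC, GAA, TTC), and the C/EBP-ATF response element as TGATGNAA, on both strands, in RefSeq windows (GRCh38.p14) of 250 bases before to 50 after the gene start. A window was given for 44 of the 59 transporters, 25 of them tested. No window of a transporter held the heat shock element, which 0.490% of all 35116 windows hold. The C/EBP-ATF element was found in 4 of 44 (9.09%), against 3.62% of all windows. The 4 matches are shown because they fall in transporters of high level, with the match in capitals, 5′ to 3′ on the strand of the gene.
SLC1A3: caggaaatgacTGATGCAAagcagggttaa
SLC3A2: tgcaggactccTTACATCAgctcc
SLC38A1: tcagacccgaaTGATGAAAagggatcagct
SLC7A1: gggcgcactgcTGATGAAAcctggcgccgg
The matches lie at chr5:36596368-36596375 (plus strand gene), chr11:62881736-62881743 (plus strand gene), chr12:46266513-46266520 (minus strand gene) and chr13:29595674-29595681 (minus strand gene). Counted from the RefSeq start, the first bases are at -220 for SLC1A3, +38 for SLC3A2, -4 for SLC38A1 and +8 for SLC7A1. For 3 of them that start is not the first base of the counted gene, which is chr5:36606355 for SLC1A3, chr11:62856102 for SLC3A2 and chr12:46270017 for SLC38A1. SLC1A3 and SLC3A2 were called higher beyond 2-fold, SLC7A1 was called higher by less, and SLC38A1 had overlapping groups. In SLC3A2 the element reads on the opposite strand, so the capitals show its reverse complement. The windows of SLC6A15, SLC7A11, SLC43A3, SLC6A6 and SLC7A2 were not searched.

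Genes of the same pathways were examined as lists. Of 17 tested carriers of amino acids and peptides from other families, 3 were higher and 9 lower, with a median log2 fold change of -0.32. The called share of 70.6% was near the 65.9% of all tested genes, of which 32.7% were higher and 33.2% lower. SLC15A2, a peptide carrier, was at 11.7 and 10.2 CPM in WT and 2.07 and 1.46 CPM in HSF1 cells (log2 fold change -2.61, SE 0.203, edgeR adjusted p = 4.97e-08). CTNS, the lysosomal cystine exporter, changed by -1.02 (SE 0.116), MFSD12, a lysosomal cysteine carrier, by -1.17 (SE 0.0864) and SLC25A18, a mitochondrial glutamate carrier, by -1.19 (SE 0.340), all log2 and all called. The SLC25A18 call was lost in DESeq2 (adjusted p = 0.130, range over the alternatives 0.00287 to 0.130).

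The list for amino acid sensing upstream of mTORC1 held 27 genes: sensors, their regulators and the mTORC1 components MTOR, RPTOR and MLST8. Of these 27, 8 were higher and 15 lower (85.2% called, against 65.9% of all tested genes). The median log2 fold change was -0.41. RRAGD, a Rag GTPase, was low and lower still in HSF1 cells, at 1.92 and 1.67 CPM in WT and 0.119 and 0.252 CPM in HSF1 cells (log2 fold change -3.29, SE 0.431, edgeR adjusted p = 1.07e-05). RRAGD passed the filter through its WT libraries alone, so its p-value lends the fall no separate support. CASTOR2, of the arginine sensor family, changed by -2.12 (SE 0.249). The sestrins, of which SESN2 senses leucine, went both ways. Their log2 fold changes were 1.25 (SE 0.105) for SESN1, 0.81 (SE 0.0837) for SESN2 and -1.33 (SE 0.311) for SESN3. SESN3 was low, at 2.02 and 3.01 CPM in WT and 1.12 and 0.856 CPM in HSF1 cells, and its call was not kept in every alternative.

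Of 15 genes of the amino acid deprivation response, the programme driven by ATF4, 10 were higher and 3 lower (86.7% called, against 65.9% of all tested genes; median log2 fold change 0.58). This list and the sensing list share SESN2. ASNS, asparagine synthetase, was at 26.2 and 25.4 CPM in WT and 135 and 148 CPM in HSF1 cells (log2 fold change 2.46, SE 0.0924, edgeR adjusted p = 4.05e-11). DDIT4, an mTORC1 inhibitor, had a log2 fold change of 2.93 (SE 0.0980), while the lipoprotein receptor VLDLR changed by -2.62 (SE 0.170) and the stress factor ATF3 by -2.04 (SE 0.205). For ATF3 the WT libraries were far from each other, at 61.3 and 115 CPM.

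Of 25 tested enzymes that use the transported amino acids, 15 were higher and 6 lower (84.0% called, against 65.9% of all tested genes; median log2 fold change 0.67). GLUL, glutamine synthetase, was at 224 and 199 CPM in WT and 1607 and 2217 CPM in HSF1 cells (log2 fold change 3.17, SE 0.148, edgeR adjusted p = 2.75e-10). BCAT1, the cytosolic branched-chain aminotransferase, was at 26.9 and 32.6 CPM in WT and 4.06 and 2.01 CPM in HSF1 cells (log2 fold change -3.25, SE 0.203, edgeR adjusted p = 4.96e-09). PYCR1, of proline synthesis, had a log2 fold change of 2.01 (SE 0.148) and CBS, of the transsulphuration route, of 3.11 (SE 0.349). CBS stood at 0.373 and 0.592 CPM in WT and 4.98 and 3.37 CPM in HSF1 cells. As a group, only its HSF1 libraries carried CBS through the filter, so its call lends the rise no separate support. The plot of gene lists shows transporters, deprivation response and enzymes with medians above 0, and the other carriers and the sensing genes with medians below 0.

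**Figure D5:**
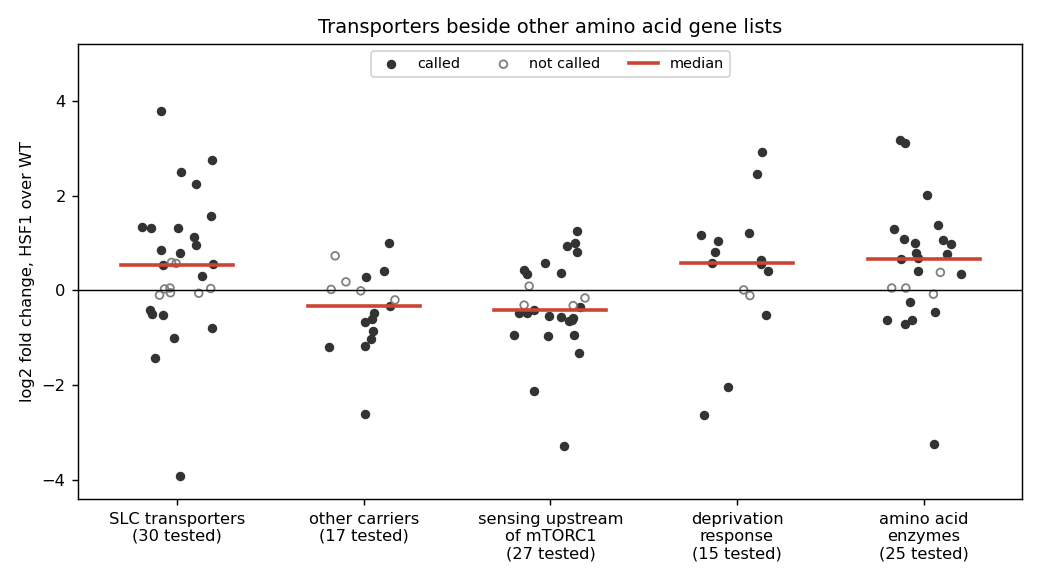
Log2 fold change of HSF1 over WT for each tested gene of 5 lists; filled points were called, open points were not, and red lines are list medians. The medians are 0.55 for the transporters, -0.32 for the other carriers, -0.41 for the sensing genes, 0.58 for the deprivation response and 0.67 for the enzymes.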

How the data were processed

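Total RNA of MCF10A cells was depleted of ribosomal RNA and sequenced in pairs of 76 bases. Per the labels and the study's methods, the authors aligned reads to hg38 with HISAT2 2.0.5, used SAMtools 1.13, and counted reads per GENCODE 26 gene with featureCounts 1.6.5; strand and overlap settings are not given in the sources used here. The deposited counts per gene are whole numbers without normalization. The deposited table of normalized log2 values, made by the authors with DESeq2 1.32.0, served to pair symbols with genes, for second rows of a symbol and for the ratio rule; its columns of the authors' fold changes were not used.

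Counts were tested with edgeR 4.0.16 (R 4.3.3): genes passing a filter with a count minimum of 10, TMM scaling, the quasi-likelihood test between 2 WT and 2 HSF1 libraries, Benjamini-Hochberg adjustment over 15830 genes and a threshold of 0.05. No replicate term entered the fit, since the replicate numbers are not said to mark a shared culture or day. CPM use the TMM-scaled library sizes and GENCODE 44 symbols. CPM per kilobase divides by the exon length in the count table. The WT pair and the HSF1 pair differed by more than sampling noise (chi-square per degree of freedom 6.62 and 8.04), so all 4 libraries were counted as separate samples. An exact permutation test of a single gene cannot go below p = 0.333 with 2 against 2 libraries. On simulated counts for 15830 genes with 200 changed, the test recovered 80.7% of genes changed by 1 and 96.3% of those changed by 2 on the log2 scale, and 3.80% of calls were false. The simulated spread followed the overall trend with level, with no extra spread of single genes, and in the data 65.9% of genes were called. These shares therefore need not hold for the comparison of WT and HSF1 cells.

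The transporters and gene lists were chosen with earlier results of these data known. Named were transporters called with a change beyond 2-fold and at least 1 CPM, the 10 highest by CPM per kilobase, SLC3A1, SLC3A2 and the tested light chains, HSF1, and at most 4 genes per other list. The remaining transporters are named to account for the families, and SESN2 to complete the sestrins, after their values were seen. Alternatives were no filter, RLE scaling or library size only, DESeq2 1.42.0, a replicate block, an adjusted p of 0.01, the study's ratio rule on the normalized values (above 2.0 or below 0.50 in both replicates), and each library left out.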

Additional observations from a re-analysis of the deposited data

How the results depend on the processing

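No called transporter changed direction under any alternative, and 18 of the 22 were called in every one. The exceptions were SLC7A1 (without WT replicate 2 or HSF1 replicate 2), SLC38A9 (without either of the same libraries, in DESeq2, and with library size only, adjusted p = 0.0764), SLC6A16 (without HSF1 replicate 2 and in DESeq2) and SLC7A8 (in DESeq2). The number of transporters at least 2-fold lower, 2 in the report, was 4 in DESeq2, which added SLC38A7 and SLC6A2. It was 3 with RLE scaling, with no filter and by the ratio rule. Without HSF1 replicate 1, SLC6A16 had a log2 fold change of -1.10. The number at least 2-fold higher, 9 in the report, was 8 by the ratio rule, which SLC6A14 did not meet. It was 10 with library size only and 11 with no filter. With no filter 17 transporters were called higher and 8 lower, against 15 and 7 in the report. Of the 8 transporters that were not called, 5 changed sign as each library was left out, with log2 fold changes from -0.09 to 0.16 for SLC38A2, -0.05 to 0.12 for SLC7A6, -0.29 to 0.22 for SLC7A2, -0.28 to 0.48 for SLC38A6 and -0.02 to 1.05 for SLC43A2, whose upper value, without HSF1 replicate 1, was called (adjusted p = 0.0435, range over the alternatives 0.0435 to 0.971). SLC7A2 was also 0.01 with library size only. The causes were not tested. Deviations of same-numbered libraries had a correlation of 0.00014 over all tested genes and -0.11 over genes above 8 CPM, so the numbers were not taken to pair the libraries. A replicate block changed no call of a transporter (15 higher, 7 lower) and gave 5138 genes higher and 5171 lower among all genes, against 5175 and 5253. A block with the numbers crossed, added after seeing the data, gave 15 and 7 transporters and 5429 and 5487 genes. For the 29 untested transporters the counts were too few for a test under the filter.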

Other observations

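A hand-picked group of carriers known from the lysosome was mostly lower in HSF1 cells. The grouping was made after their values were seen and is therefore given with no test. SLC36A4, which was not called (log2 fold change -0.10), was not put in it. Of 8 such carriers among the transporters and the other carriers, 7 were called lower in HSF1 cells and 0 higher, where 33.2% of all tested genes were called lower. Besides SLC36A1, SLC38A7, SLC38A9, CTNS and MFSD12, described above, these were the peptide and histidine carrier SLC15A4, with a log2 fold change of -0.86 (SE 0.0919, edgeR adjusted p = 1.32e-06), and the cationic amino acid exporter SLC66A1, with -0.32 (SE 0.113, edgeR adjusted p = 0.0206). The exception, SLC15A3, had a log2 fold change of 0.73 (SE 0.357, edgeR adjusted p = 0.0871) and was not called. DESeq2 called 5 of the 8 lower. The calls of SLC66A1 (DESeq2 adjusted p = 0.133, range over the alternatives 0.0131 to 0.133) and SLC38A9 were lost there, and that of SLC38A9 also without WT replicate 2 or HSF1 replicate 2.

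The deposited normalized table holds a second row for the symbol SLC43A2, with values of 5.74 and 5.26 in WT and 3.87 and 3.96 in HSF1 cells on its log2 scale. The row paired with the counted gene has 4.98 and 5.34 in WT and 5.14 and 5.87 in HSF1 cells. The rows go in opposite directions, so the level of SLC43A2 is uncertain. The opposite-strand gene SLC7A6OS was at 8.15 and 8.67 CPM in WT and 4.34 and 4.58 CPM in HSF1 cells, a log2 fold change of -0.92, while SLC7A6, with which it shares exonic bases, had overlapping groups.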
